A study of Mus musculus with 7 samples.

Results

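The Slc25 family is the set of mitochondrial carriers, proteins that move metabolites, nucleotides and ions across the inner mitochondrial membrane. Its members were taken as every row of the gene table whose symbol is Slc25a followed by a number, which gave 44 of 36666 gene rows. RNA was measured by mRNA sequencing of the cerebral cortex of C57BL/6 mice, in 4 samples at embryonic day 17 and in 3 samples labelled adult, which the series' design text calls young adult. No genotype, treatment or sex is given in the labels, and all samples share the same strain and tissue. The labels do not say whether a sample is 1 animal or a pool, nor whether replicates came from separate animals, so the p-values reflect only how far these samples differ among themselves, which may be technical. The comparison asks how RNA levels of the carriers differ between the embryonic and the adult cortex.

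Mitochondrial carriers are built from a repeated unit of paired membrane helices and work by opening in turn to either side of the inner membrane. They exchange ADP for ATP, bring in phosphate and the fuels of the citric acid cycle, and carry reducing equivalents through the malate-aspartate shuttle, a route on which neurons rely strongly. Some members sit elsewhere, in peroxisomes or in the outer mitochondrial membrane.

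Reads counted in genes numbered 18444272 to 23606525 a sample. Levels are CPM, the reads of a gene per 1000000 counted reads, and a value with ± is a mean and SD over the 4 embryonic or the 3 adult samples. Differences are adult minus embryonic means on the scale of the deposited values, which is close to log2 for well expressed genes and compressed for genes with few reads, so that a difference of 1 is about 2-fold. A gene is called where limma's adjusted p is under 0.05. Marker lists of cell types differed widely between the stages. Summed CPM was 880.7 to 982.8 in embryonic and 10820 to 11840 in adult samples for 10 markers of mature neurons, and 546.4 to 563 against 6771 to 8240 for 10 markers of astrocytes. It was 81.33 to 91.09 against 4266 to 7663 for 10 oligodendrocyte markers, 42.28 to 48.37 against 419.7 to 422.7 for 10 microglial markers, and 478.3 to 650.2 against 44.86 to 53.67 for 10 markers of dividing cells. Every gene of these 5 lists was called, in the direction of its sum. In bulk tissue a change in the number of cells of a type cannot be told apart from a change in RNA per cell, and the part of these lists in the carrier results was not tested.

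Most carriers were higher in the adult cortex. Of the 43 members tested, 27 rose and 8 fell, and 8 were not called. Over all 22828 genes tested, 69.7% were called, 35.8% as higher and 33.9% as lower. Higher calls thus made up 62.8% of the tested carriers against 35.8% of all genes, and lower calls 18.6% against 33.9%. The median difference of the tested carriers was 0.52, beside 0.03 over all genes. Centring each sample on its median moved the median of all genes by -0.18 and that of the carriers to 0.34, with 23 carriers higher and 9 lower. The values of the adult and embryonic samples did not overlap for 33 carriers, or 76.7%, against 68.9% of all genes. The member without a test, Slc25a41, a relative of the ATP-Mg/phosphate carriers, had no reads in any embryonic sample and 0, 3 and 3 reads in adult replicates 1 to 3.

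**Figure D1:**
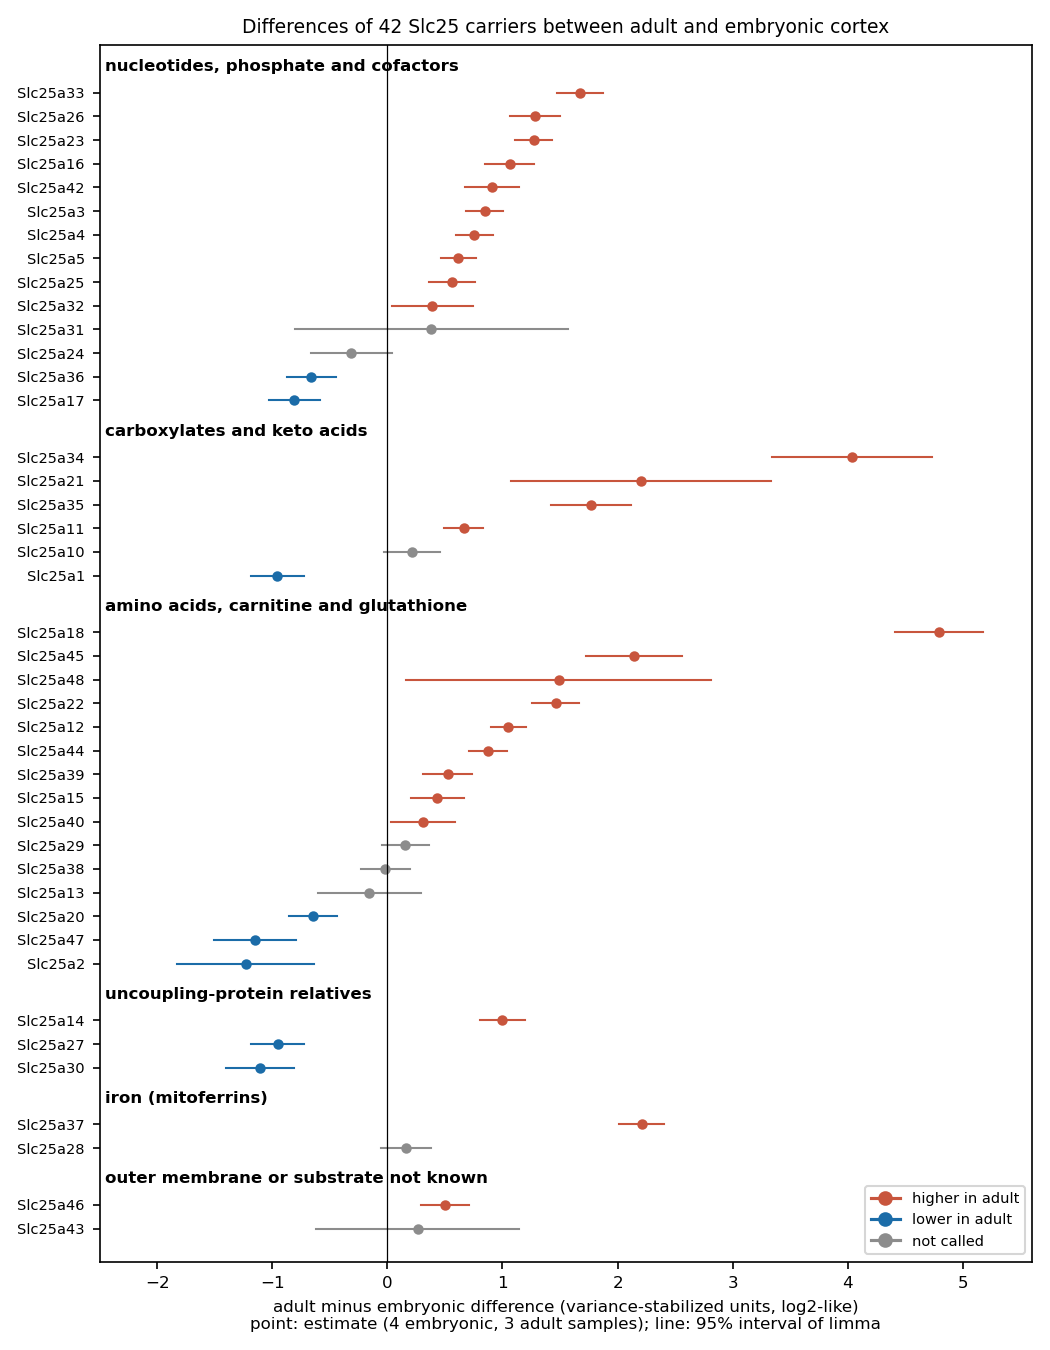
Adult minus embryonic difference of 42 tested carriers (horizontal axis, variance-stabilized units close to log2), grouped by the kind of substrate, with the 95% interval of limma as a line and called genes in colour. The 26 carriers drawn that rose reach from 0.31 to 4.79, and the 8 that fell from -0.64 to -1.23.

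The summed reads of the family were 1686, 1757, 1807 and 1745 CPM in the embryonic samples and 2657, 2705 and 2706 CPM in the adult samples. Every adult sum lay above every embryonic one, with means of 1749 ± 49.89 and 2689 ± 27.69 CPM. The 6 members with the highest mean CPM over all 7 samples were Slc25a4, Slc25a23, Slc25a3, Slc25a22, Slc25a5 and Slc25a12. They took up 54.89 ± 0.97% of all carrier reads at the embryonic stage and 65.5 ± 0.38% in adult samples. The adult samples took part in this choice, so part of the difference may be built in. At the embryonic stage Slc25a36 (95.88 CPM) and Slc25a27 (84.55 CPM) had more reads than Slc25a22 (79.16 CPM) and Slc25a12 (72.69 CPM). Slc25a23 went from 10.15 to 15.04% of the family's reads and Slc25a22 from 4.525 to 7.741%, while Slc25a4 held 20.06 and 20.73%. Reads per gene depend on transcript length, so members were ranked by CPM per kilobase of the longest protein-coding transcript. On that scale Slc25a4, Slc25a3, Slc25a5 and Slc25a23 held ranks 1 to 4 at both stages, at 182.4, 107.7, 85.59 and 52.81 CPM per kilobase in the embryo and 289.6, 182.6, 124 and 120.4 in the adult. Below these the order differed. Slc25a22 went from rank 9 to rank 5 and Slc25a18 from rank 35 to rank 9, whereas Slc25a1 went from rank 5 to 14, Slc25a17 from 6 to 16 and Slc25a27 from 8 to 17.

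**Figure D2:**
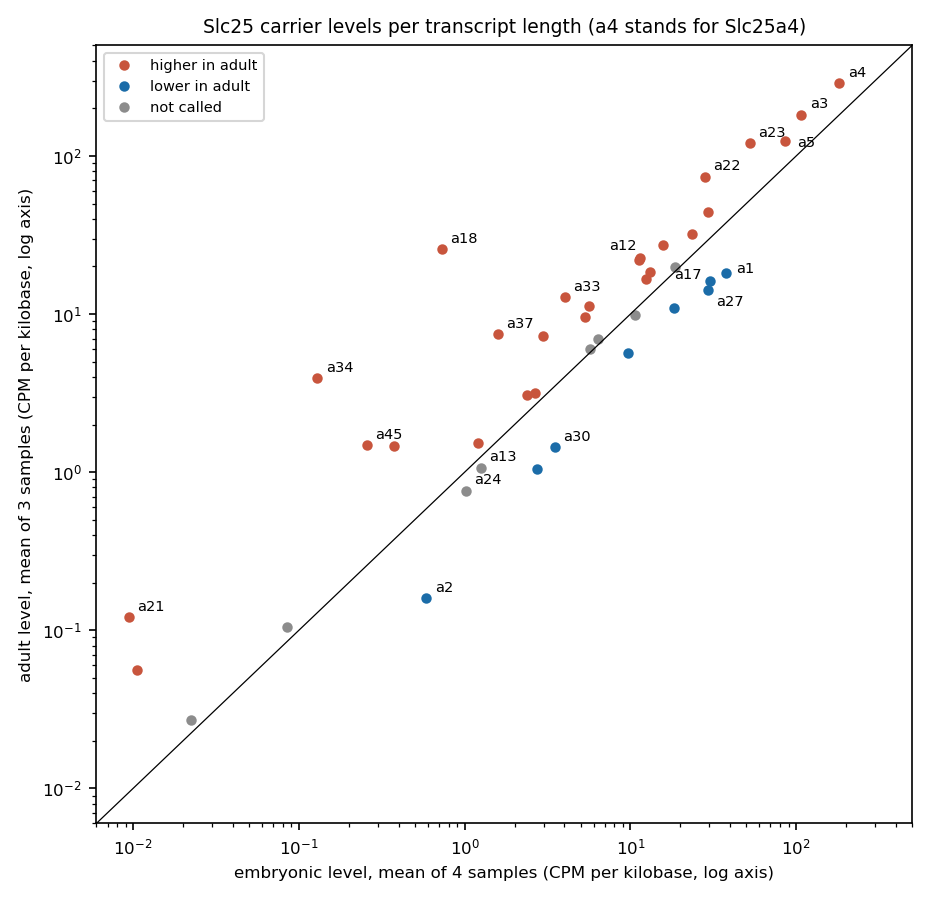
Mean adult level against mean embryonic level of 42 tested carriers in CPM per kilobase of transcript, both axes logarithmic, with the line of equal levels. Slc25a4, Slc25a3, Slc25a5 and Slc25a23 sit at the top at both stages, and Slc25a18 lies farthest above the line, at 0.7309 in the embryo and 25.85 in the adult.

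Carriers of nucleotides, phosphate and cofactors counted 15 tested members, of which 11 rose, 2 fell and 2 were not called, with a median difference of 0.62. The ADP/ATP carriers exchange cytosolic ADP for ATP made in the matrix. Slc25a4, the isoform typical of heart, muscle and brain, stood at 338, 346, 386 and 334.5 CPM in the embryonic and 550.2, 546 and 576 CPM in the adult samples. Slc25a5, the isoform typical of dividing cells, stood at 100.4, 111, 108 and 106 CPM in the embryonic and 158, 152 and 151 CPM in the adult samples. Both rose, with no overlap between the stages, by 0.75 ± 0.07 (SE, adjusted p = 5.959e-07) and 0.62 ± 0.07 (adjusted p = 2.365e-06). Slc25a5 has processed copies in the genome, so its reads may be split or shared. Slc25a31, the isoform typical of testis, had 0 to 2 reads a sample and was not called. Slc25a3, which brings in the phosphate used for ATP synthesis, stood at 158, 184, 173 and 180.1 CPM in the embryonic and 284, 293 and 306 CPM in the adult samples. It rose by 0.85 ± 0.07 (adjusted p = 1.673e-07).

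The ATP-Mg/phosphate carriers, which are gated by calcium and set the size of the adenine nucleotide pool in the matrix, did not move alike. Slc25a23 stood at 166, 176, 193 and 175 CPM in the embryonic and at 389.8, 403 and 421 CPM in the adult samples. It rose by 1.27 ± 0.07 (adjusted p = 2.262e-09) and passed a test against a 2-fold null (adjusted p = 0.007615), as 9 carriers did, all of them higher in the adult. Of all genes 22.5% passed that test, 14% as higher and 8.47% as lower. Slc25a25 rose from 46.29 ± 2.87 to 65.1 ± 7.58 CPM. Slc25a24 stood at 3.63, 3.59, 3.29 and 3.51 CPM in the embryonic and 3.27, 2.67 and 1.94 CPM in the adult samples. It was not called, with a difference of -0.31 ± 0.16 (adjusted p = 0.1023), although it was called lower after centring (-0.49) and without adult replicate 1 (-0.46).

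The pyrimidine nucleotide carriers, which supply the matrix with the building blocks of mitochondrial DNA and RNA, went in opposite directions. Slc25a33 stood at 7.81, 7.75, 7.15 and 7.58 CPM in the embryonic and 23.6, 25 and 24.2 CPM in the adult samples. Slc25a36 stood at 92.1, 91.3, 86.9 and 113 CPM in the embryonic and at 60, 50.3 and 60 CPM in the adult samples. Slc25a33 rose by 1.68 ± 0.09 (adjusted p = 1.258e-09) and Slc25a36 fell by 0.66 (SE 0.10, adjusted p = 3.214e-05), and neither overlapped between the stages. Each has an annotated antisense gene, and the sources used here do not say if strand was used in counting.

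Among the cofactor carriers, Slc25a26, which brings in the methyl donor S-adenosylmethionine, stood at 5.75, 5.63, 5.5 and 6.1 CPM in the embryonic and 14.3, 13.7 and 14.2 CPM in the adult samples. Slc25a16, a carrier linked to coenzyme A, stood at 18.1, 18.4, 14.9 and 19.4 CPM in the embryonic and 37.2, 33.5 and 35.8 CPM in the adult samples. They rose by 1.28 ± 0.10 (adjusted p = 4.552e-08) and 1.06 ± 0.10 (adjusted p = 2.94e-07). Slc25a42, a coenzyme A carrier, rose from 16.94 ± 1.85 to 30.65 ± 3.73 CPM. Slc25a17, a peroxisomal carrier of cofactors, fell from 51.78 ± 2.28 to 27.79 ± 4.71 CPM. Slc25a32, linked to folate and flavin transport, was called higher by 0.39 (adjusted p = 0.04649). The call was lost without a filter (adjusted p = 0.06358), without a trend in eBayes (adjusted p = 0.1103) and with voom (adjusted p = 0.1042). It was also lost after centring (0.21) and without each of adult replicates 1 (0.24) and 2 (0.35) and embryonic replicates 1 (0.39), 2 (0.34) and 3 (0.35). Lrig1 lies opposite to Slc25a26 and Naif1 opposite to Slc25a25, so some reads may belong to these neighbours. The same holds for further carriers described here. On the opposite strand Crb3 and an antisense gene overlap Slc25a23, Rnf167 overlaps Slc25a11, Pax9 overlaps Slc25a21 and B930094E09Rik overlaps Slc25a46. Antisense genes also overlap Slc25a37 and Slc25a10, 3 protein-coding genes lie opposite to Slc25a2, and processed pseudogenes overlap Slc25a12 and Slc25a16, the latter on the same strand.

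**Figure D3:**
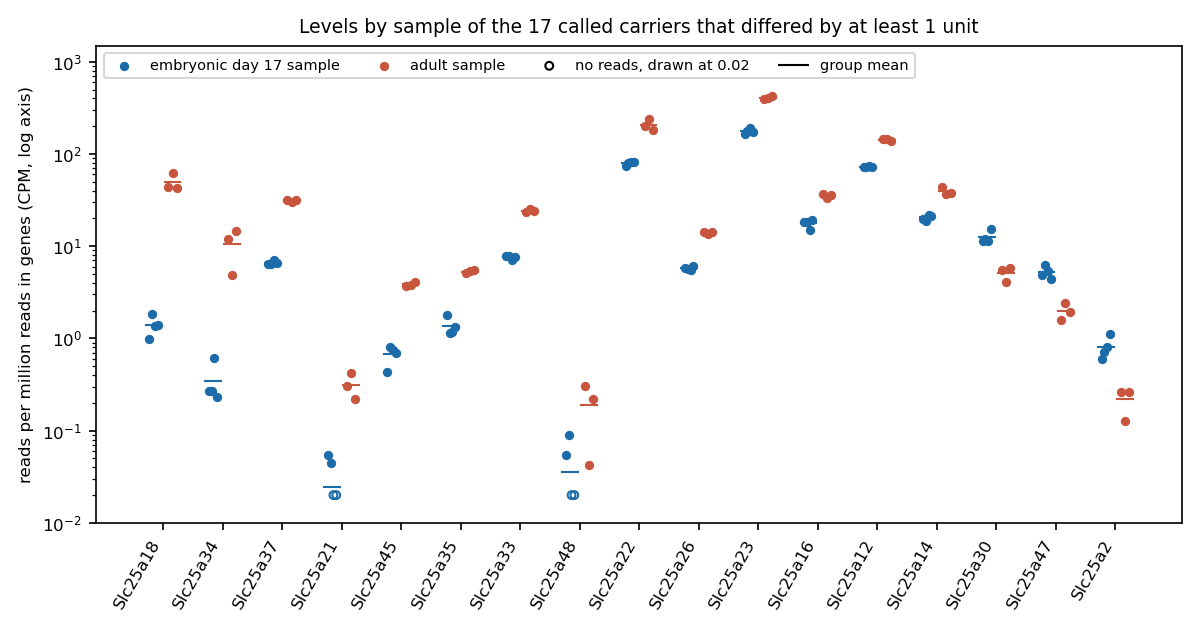
Level in each sample (CPM, logarithmic axis) of the 17 called carriers whose difference was at least 1 in size, ordered from the largest rise to the largest fall, with the group mean as a line and samples without reads as open circles at 0.02. Slc25a18 stands at 0.976 to 1.86 CPM in the embryonic and 42.4 to 62.4 CPM in the adult samples, and only Slc25a48 overlaps between the stages.

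Carriers of amino acids, carnitine and glutathione counted 15 tested members, of which 9 rose, 3 fell and 3 were not called, with a median difference of 0.43. The largest difference of the family was that of Slc25a18, which carries glutamate into the matrix. It stood at 0.976, 1.86, 1.36 and 1.39 CPM in the embryonic samples and 43.4, 62.4 and 42.4 CPM in the adult samples. Its mean rose 35.37-fold, from 1.397 ± 0.362 to 49.41 ± 11.3 CPM, a difference of 4.79 ± 0.18 (adjusted p = 2.311e-11). Atp6v1e1 lies on the opposite strand and overlaps it in the annotation. Slc25a22, the other glutamate carrier, stood at 73.8, 80.4, 81.6 and 80.9 CPM in the embryonic and 202, 241 and 182 CPM in the adult samples. It rose by 1.46 ± 0.09 (adjusted p = 6.311e-09) and remained the more abundant glutamate carrier per kilobase, at 74.07 against 25.85 CPM per kilobase in the adult.

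The aspartate/glutamate carriers export aspartate as a step of the malate-aspartate shuttle. Slc25a12, the form typical of brain and muscle, stood at 72.9, 71.7, 73.5 and 72.6 CPM in the embryonic and 146, 146 and 137 CPM in the adult samples. Slc25a13, the form typical of liver, stood at 3.2, 4.96, 3.25 and 4.2 CPM in the embryonic and 4.84, 2.71 and 2.46 CPM in the adult samples. Slc25a12 rose by 1.05 ± 0.07 (adjusted p = 7.585e-09) without overlap, while the stages overlapped for Slc25a13, which was not called (-0.16 ± 0.21, adjusted p = 0.5188). Slc25a11, which exchanges oxoglutarate for malate in the same shuttle, rose from 50.55 ± 2.44 to 75.97 ± 4.30 CPM. All 7 enzymes listed for the malate-aspartate and glycerol phosphate shuttles rose. Cytosolic Gpd1 rose from 4.686 ± 0.608 to 107.8 ± 13 CPM (4.42, adjusted p = 9.072e-13) and cytosolic Got1 from 38.93 ± 3.15 to 278.5 ± 21.5 CPM (2.90, adjusted p = 2.681e-12).

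Slc25a45 stood at 0.434, 0.797, 0.753 and 0.693 CPM in the embryonic and 3.71, 3.81 and 4.05 CPM in the adult samples, and rose by 2.15 ± 0.19 (adjusted p = 2.222e-07). Slc25a48 had 1, 2, 0 and 0 reads in the embryonic and 7, 1 and 5 reads in the adult samples. Its call (adjusted p = 0.04426) rests on these few reads. It was lost after centring (adjusted p = 0.07292) and without a trend in eBayes (adjusted p = 0.06702), and without embryonic replicate 3 or 4 or adult replicate 1 or 3, with adjusted p from 0.1049 to 0.1708. Slc25a44, a carrier of branched-chain amino acids, rose from 56.17 ± 3.07 to 97.54 ± 1.29 CPM, and Slc25a15, the ornithine carrier of the urea cycle, from 8.166 ± 0.551 to 10.62 ± 0.79 CPM.

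Slc25a39, which is required for glutathione uptake into mitochondria, stood at 39.6, 42.9, 40.8 and 34.7 CPM in the embryonic and 51.1, 59.9 and 50.8 CPM in the adult samples, a rise of 0.52 ± 0.10 (adjusted p = 0.0002604). Its relative Slc25a40 stood at 7.32, 7.57, 6.26 and 8.41 CPM in the embryonic and 10.1, 7.5 and 8.8 CPM in the adult samples. The stages overlapped for Slc25a40, and its call (0.31 ± 0.13, adjusted p = 0.04363) was lost without a filter (adjusted p = 0.05478), without a trend in eBayes (adjusted p = 0.06719) and with voom (adjusted p = 0.1365). It was also lost after centring (0.13), without adult replicate 1 (0.22) or 3 (0.31) and without embryonic replicate 1 (0.31), 2 (0.32) or 3 (0.24).

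Of the carriers in this class that fell, Slc25a2, the second ornithine carrier, stood at 0.596, 0.709, 0.8 and 1.11 CPM in the embryonic and 0.262, 0.127 and 0.264 CPM in the adult samples. These levels rest on 11, 16, 17 and 24 reads in the embryonic and 6, 3 and 6 reads in the adult samples. Slc25a47 stood at 4.83, 6.25, 5.32 and 4.39 CPM in the embryonic and 1.57, 2.41 and 1.94 CPM in the adult samples. They fell by 1.23 (SE 0.28, adjusted p = 0.00124) and by 1.15 (SE 0.17, adjusted p = 2.65e-05). With so few reads the size of the difference of Slc25a2 depends on the scale, at -1.83 with voom. Slc25a20, which exchanges acylcarnitine for carnitine and so feeds fatty acid oxidation, fell from 17.25 ± 1.11 to 10.17 ± 0.65 CPM. Of 10 listed genes of the carnitine shuttle and fatty acid oxidation, 8 rose and none fell, among them the acyl-CoA dehydrogenases Acadl (1.60) and Acadm (1.19). Slc25a29, a carrier of basic amino acids, stood at 11.31 ± 0.41 and 11.96 ± 0.32 CPM, and Slc25a38, the glycine carrier of heme synthesis, at 19 ± 0.91 and 17.73 ± 1.90 CPM. Neither was called.

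Of 10 listed enzymes of glutamate, ornithine and proline, 4 rose and 2 fell. Gls2, a glutaminase that forms glutamate in mitochondria, rose from 0.8434 ± 0.1907 to 18.6 ± 2.3 CPM (4.0), and Prodh, which breaks down proline, rose by 2.54. Of 9 enzymes of mitochondrial one-carbon and serine-glycine metabolism, 4 rose and 5 fell. Aldh1l2, which releases carbon dioxide from formyl-folate, fell from 83.51 ± 6.26 to 5.612 ± 0.498 CPM, and Mthfd2l, a methylene-folate dehydrogenase, fell by 1.89.

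Carriers of carboxylates and keto acids counted 6 members, of which 4 rose, 1 fell and 1 was not called, with a median difference of 1.22. The median gives each member the same weight, and the largest rises were in members with few embryonic reads. The summed level of the class overlapped between the stages, at 119.5 to 139.2 CPM in embryonic and 131.1 to 144 CPM in adult samples. Slc25a34 stood at 0.271, 0.266, 0.612 and 0.231 CPM in the embryonic and 12.1, 4.83 and 14.6 CPM in the adult samples. Slc25a35, its close relative, stood at 1.79, 1.15, 1.18 and 1.34 CPM in the embryonic and 5.15, 5.34 and 5.45 CPM in the adult samples. They rose by 4.04 ± 0.32 (adjusted p = 5.953e-08) and 1.77 ± 0.16 (adjusted p = 2.719e-07), and adult replicate 2 stood well below the other adult samples for Slc25a34 but not for Slc25a35. Rangrf overlaps Slc25a35 on the opposite strand. Slc25a21, a carrier of oxodicarboxylates from lysine and tryptophan breakdown, had 1, 1, 0 and 0 reads in the embryonic and 7, 10 and 5 reads in the adult samples. It was called higher (adjusted p = 0.001902), and with so few embryonic reads the size of its difference depends on the scale.

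Slc25a1, the citrate carrier that exports acetyl units for lipid synthesis, stood at 58.6, 62.5, 72.2 and 58.8 CPM in the embryonic and 26.9, 34.7 and 29.3 CPM in the adult samples. It fell by 0.96 (SE 0.11, adjusted p = 1.931e-06) and was the only carboxylate carrier that did so. Slc25a10, the dicarboxylate carrier, stood at 12.82 ± 1.60 and 14.12 ± 1.17 CPM and was not called (0.22, adjusted p = 0.1005), although it was called higher without embryonic replicate 2 (0.30). Of 14 enzymes of the citric acid cycle, 13 rose and none fell, with Idh3a (1.49) and Sucla2 (1.47) the largest.

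The uncoupling-protein relatives, a class of 3 members, were the class in which lower calls (2) outnumbered higher ones (1). The symbol rule leaves out the uncoupling proteins themselves, of which Ucp2 and Ucp3 rose and Ucp1 fell, as given below. Slc25a27, a relative found mainly in neurons, stood at 89.3, 84.5, 82.6 and 81.7 CPM in the embryonic and at 37, 36.1 and 50.6 CPM in the adult samples. Slc25a30, a relative first described in kidney, stood at 11.5, 12.1, 11.3 and 15.2 CPM in the embryonic and 5.54, 4.11 and 5.85 CPM in the adult samples. They fell by 0.95 (SE 0.11, adjusted p = 2.119e-06) and by 1.11 (SE 0.14, adjusted p = 5.783e-06). Slc25a14, also named brain mitochondrial carrier protein, stood at 19.8, 18.9, 22 and 21.1 CPM in the embryonic and 43.8, 37 and 37.5 CPM in the adult samples, and rose by 1.0 ± 0.09 (adjusted p = 2.656e-07). All 3 Slc25 members of the class had stages that did not overlap.

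The mitoferrins bring iron into the matrix for heme and iron-sulfur clusters. Slc25a37, the form best known from developing red blood cells, stood at 6.4, 6.42, 7.06 and 6.56 CPM in the embryonic and 31.6, 30.4 and 31.8 CPM in the adult samples. Slc25a28, the form found in most tissues, stood at 28.7, 29.5, 31.1 and 25.3 CPM in the embryonic and 27.6, 33.2 and 30.1 CPM in the adult samples. Slc25a37 rose by 2.21 ± 0.09 (adjusted p = 6.944e-11) and the stages overlapped for Slc25a28, which was not called (0.16 ± 0.10, adjusted p = 0.1613). Of 9 erythroid markers tested, 1 rose (Tfrc, the transferrin receptor) and 4 fell (the globin genes Hba-a1, Hba-a2, Hbb-b1 and Hbb-b2). The summed level of the listed erythroid markers was 1075 to 1622 CPM in embryonic and 464.4 to 1062 CPM in adult samples, and its part in the Slc25a37 result was not tested. Of these markers Epb4.2 had no reads in any embryonic sample. Of 12 genes of heme and iron-sulfur synthesis, 6 rose and 2 fell, with Cpox (1.91) and Iscu (1.53) the largest. The remaining members were Slc25a46, an outer membrane protein of mitochondrial dynamics that rose from 54.45 ± 5.89 to 73.17 ± 8.22 CPM, and Slc25a43, with 1 to 4 reads a sample and not called.

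Related carriers were then compared within each sample, as the difference of their deposited values. On a log scale such a difference does not depend on the scaling between samples. Where a member has few reads, as Slc25a18 in the embryonic samples, the deposited values are compressed and this holds only in part. In 6 of 8 pairs this balance differed between the stages in an exact two-sided permutation test (p = 0.02857, the smallest the 7 samples allow, adjusted p = 0.03809 over 8 pairs), with no overlap. The pairs were chosen with the members' own results known, so these p-values describe the pairs and are no independent evidence. No background was computed for balances of other pairs of genes, so the count cannot be read as high for the carriers. For single genes, which is another measure, the stages did not overlap for 68.9%. The balance of Slc25a22 over Slc25a18 was 5.68, 5.06, 5.45 and 5.41 in the embryonic and 2.20, 1.93 and 2.08 in the adult samples, a difference of -3.33. Slc25a36 over Slc25a33 went from a mean of 3.53 to 1.19. In both pairs the same member had more reads at either stage.

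The balance of Slc25a37 over Slc25a28 was -2.05, -2.08, -2.03 and -1.84 in the embryonic and 0.19, -0.12 and 0.07 in the adult samples. That of Slc25a27 over Slc25a14 was 2.12, 2.11, 1.87 and 1.91 in the embryonic and -0.24, -0.03 and 0.42 in the adult samples. In both pairs 1 member had more reads in every embryonic sample, and the reads of the 2 members, not scaled by length, were near equal in the adult. Slc25a12 over Slc25a13 went from a mean of 4.02 to 5.23 and Slc25a23 over Slc25a24 from 5.42 to 7.0, so that the member with more reads gained further. For Slc25a4 over Slc25a5 the means were 1.72 ± 0.09 and 1.85 ± 0.07 (difference 0.14, exact permutation p = 0.1143, adjusted p = 0.1306), and for Slc25a39 over Slc25a40 they were 2.31 ± 0.26 and 2.53 ± 0.32 (difference 0.21, exact permutation p = 0.4286). The stages overlapped for these pairs.

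**Figure D4:**
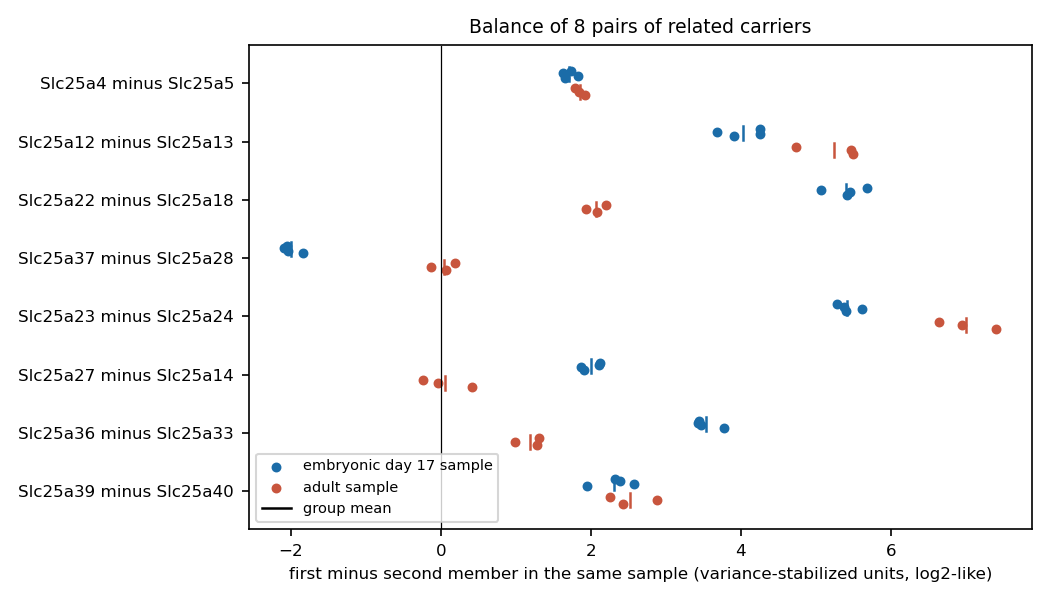
Balance of 8 pairs of related carriers, as the first member's deposited value minus the second's in the same sample (horizontal axis, variance-stabilized units close to log2), with group means as lines. In 6 pairs the stages do not overlap, and the Slc25a37 and Slc25a28 pair goes from a mean of -2.0 to 0.05.

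Of 7 family members listed under other symbols, 4 were higher and 3 lower. Over all genes tested 35.8% were called higher and 33.9% lower, which is the background for each list count given here. Ucp2 rose from 10.2 ± 1.0 to 32.11 ± 5.03 CPM and Ucp3 from 0.0751 ± 0.0584 to 3.788 ± 0.418 CPM, both relatives of the uncoupling protein of brown fat. Ucp1 itself had 6 to 9 reads in the embryonic and 0 to 3 reads in the adult samples and fell. Mtch1 and Mcart6 rose, and Mtch2 and Mcart1 fell, by 0.24 to 0.38 in size. Carriers reach the inner membrane through outer membrane receptors and the TIM22 complex, and of 12 genes of this route 6 rose and none fell, with the receptors Tomm20 (0.63) and Tomm70a (0.56) the largest. Of 13 genes for other transport across the mitochondrial membranes, 8 rose and 2 fell, with Sfxn5, a sideroflexin, at 26.89 ± 1.36 and 181.8 ± 8.2 CPM (2.80) and Cbara1, a regulator of calcium uptake, at 0.96. Of 12 regulators of mitochondrial biogenesis, 5 rose and 5 fell. The coactivators Ppargc1b (3.23) and Ppargc1a (1.98) had the largest differences. Of 10 endothelial markers 7 rose and 1 fell, with summed levels of 175.1 to 202.6 CPM in embryonic and 346.8 to 384.6 CPM in adult samples.

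Exon use was available for 22 of the 44 members, with 180 exons. The deposited exon values stand for the inverse of an exon's share of its gene's reads, and an exon was tested against the other exons of its gene. The inverse was recovered as a whole number, so shares are approximate and move in steps such as 100, 50, 33.33 and 25%. They are coarse for exons with many reads and need not add up to 100%. In Slc25a28 1 exon stood at 100% in every sample, beside another at 7.692 to 25%. Of the 180 exons 7 were called, or 3.89%, against 4.86% of all 86181 exons tested, and 12.2% of the carrier exons had an unadjusted p under 0.05, against 14.4% of all exons. Neither share of the carriers lay above the background. Without adult replicate 3 the calls numbered 11 in carriers and 6799 over all exons, and without adult replicate 2 they numbered 6 and 2757, against 7 and 4185 with every sample. In 4 of the 7 called exons, or 57.1%, the stages did not overlap, against 71.2% of all called exons, and 3 of the 4 lie in Slc25a14. The exon of Slc25a14 that starts at position 45981313 of chromosome X (mm9), the fourth of 13 in the table, held 3.33, 2.33, 1.28 and 1.75% of the gene's reads in the embryonic and 0.80, 0.34 and 0.12% in the adult samples. These shares rest on 12.2, 9.93, 6 and 8.02 estimated reads in the embryonic and 8.02, 3 and 1 in the adult samples. It had the smallest adjusted p of the family's exons (limma's exon test, 6.482e-08). The next exon, at 45982429, went from 4.89 ± 1.38 to 8.675 ± 1.191% (adjusted p = 0.0006287), and the second, at 45977139, from 6.134 ± 1.484 to 10.53 ± 1.77% (adjusted p = 0.005257). The exons of the table that were lower and higher in share thus lie beside each other near the start of the gene, while exons 6 to 13 were not called.

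**Figure D5:**
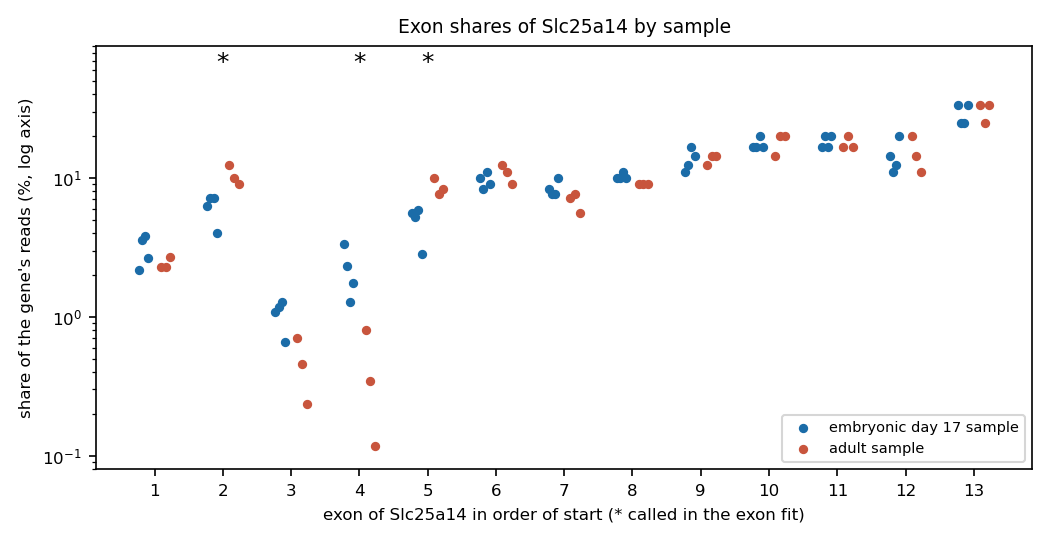
Share of the reads of Slc25a14 in each of its 13 exons (vertical axis, percent, logarithmic) by sample, with exons numbered by their start and asterisks at the 3 called ones. Exon 4 lies at 1.28 to 3.33% in the embryonic and 0.12 to 0.80% in the adult samples, and exons 2 and 5 lie higher in the adult.

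In Slc25a23 the exon at 57198944 of chromosome 17 (mm9) held 4.55, 4.76, 4.35 and 3.57% of reads in the embryonic and 7.14, 7.69 and 6.67% in the adult samples (adjusted p = 7.971e-05). The other called exons, given here after their values were seen, had stages that overlapped. They lie in Slc25a39 (2.112 and 4.059%), Slc25a22 (6.458 and 4.191%) and Slc25a38 (10.76 and 7.222%, embryonic and adult means). Without adult replicate 1 the calls in Slc25a39 (adjusted p = 0.05151) and Slc25a22 (adjusted p = 0.08941) were lost. That in Slc25a38 was lost without each of embryonic replicates 1, 2 and 4 and adult replicates 2 and 3 (adjusted p from 0.0871 to 0.4635). None of the 7 exons of Slc25a3 and none of the 4 exons each of Slc25a4 and Slc25a5 was called. Some of their main exons had the same share in every sample, at 50 and 33.33% in Slc25a4 and 25 and 33.33% in Slc25a3. Steps this coarse cannot show a moderate change, so the lack of a call does not show that exon use was the same.

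Promoter windows from RefSeq (GRCm38.p6, 250 bases before to 50 bases after the start of a gene) were at hand for 34 of the 44 members, with 43 windows searched. Motifs of regulators linked to mitochondrial genes, and the TATA box, were searched on both strands as exact letters. The site of nuclear respiratory factor 1, given by its name alone, was in 2 of the 43 carrier windows (4.65%) and in 4.6% of all 32851 windows. The cyclic AMP response element, TGACGTCA, was in 2 carrier windows (4.65%) against 1.79% of all windows. The TATA box, TATAAA, was in 2 (4.65% against 13.6%), and the ETS site, CCGGAAGT, in 1 (2.33% against 3.89%). The carrier shares thus rest on 1 or 2 windows each, and the differences were not tested. The site of the estrogen-related receptors, TCAAGGTCA, was in none of the carrier windows and in 0.423% of all windows. No match in the windows printed overlaps a match of another motif searched. Of the carriers with a match, 4 are shown here, chosen after their values were seen. Slc25a18 is the carrier with the largest rise, Slc25a3 is among the most abundant, and Slc25a25, which rose, and Slc25a36, which fell, share the cyclic AMP response element. Capitals mark the match, and each sequence reads 5′ to 3′ on the strand of the gene.
Slc25a18, chr6:120773518-120773817, plus strand, TATA box on the other strand: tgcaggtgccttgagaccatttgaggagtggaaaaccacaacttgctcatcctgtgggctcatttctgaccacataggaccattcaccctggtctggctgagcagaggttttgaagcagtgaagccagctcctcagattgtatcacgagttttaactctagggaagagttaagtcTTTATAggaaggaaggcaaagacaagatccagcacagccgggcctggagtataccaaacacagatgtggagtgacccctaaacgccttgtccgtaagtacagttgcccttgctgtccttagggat
Slc25a3, chr10:91123918-91124217, minus strand, nuclear respiratory factor 1 on the other strand: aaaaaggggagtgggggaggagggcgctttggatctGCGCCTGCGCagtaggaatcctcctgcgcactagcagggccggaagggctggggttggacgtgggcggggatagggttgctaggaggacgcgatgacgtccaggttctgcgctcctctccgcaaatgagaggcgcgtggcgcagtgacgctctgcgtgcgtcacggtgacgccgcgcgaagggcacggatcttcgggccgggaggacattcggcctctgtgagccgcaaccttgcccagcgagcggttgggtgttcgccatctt
Slc25a25, chr2:32424017-32424316, minus strand, cyclic AMP response element: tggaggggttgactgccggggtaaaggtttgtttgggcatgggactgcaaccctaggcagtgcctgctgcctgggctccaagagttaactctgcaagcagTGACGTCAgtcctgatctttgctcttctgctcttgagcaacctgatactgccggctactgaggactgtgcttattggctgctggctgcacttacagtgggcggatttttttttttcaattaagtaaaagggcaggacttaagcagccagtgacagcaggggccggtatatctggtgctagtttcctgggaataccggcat
Slc25a36, chr9:97110992-97111291, minus strand, cyclic AMP response element: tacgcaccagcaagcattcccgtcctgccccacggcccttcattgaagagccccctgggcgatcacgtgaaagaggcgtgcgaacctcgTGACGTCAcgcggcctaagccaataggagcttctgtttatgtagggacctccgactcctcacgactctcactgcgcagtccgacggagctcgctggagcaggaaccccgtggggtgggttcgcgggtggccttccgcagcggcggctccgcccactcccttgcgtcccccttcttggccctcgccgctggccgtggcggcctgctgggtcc
A match is a description of the window and not a measured site.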

How the data were processed

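Trizol was used to extract RNA from the cerebral cortex and an Illumina mRNA kit to make libraries, per the labels' protocols. The submitters' processing notes name HTSeq 0.5.3p3, TopHat 1.0.13, SAMtools 0.1.7a, CASAVA 1.7.1 and Bowtie 0.12.7.0, and the mm9 build, with no role for any of them. The gene table as deposited holds log2-like values that the authors variance-stabilized. The deposited exon values are a variance-stabilized score that falls as an exon's share of its gene's reads grows. Strand use in counting was not stated in these sources.

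Each column was 1 smooth function of whole numbers, so the counts behind it were recovered, with 100% of gene values within 0.1 of a whole number in every sample. The first 300 steps of a gene column were assigned their whole number. CPM and exon shares (100 divided by the whole number) came from these and describe levels only. Transcript lengths were those of GENCODE M21. Pairs of replicates had a chi-square of 4.83 to 17.7 for each degree of freedom, so none was counted as a repeat.

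Adult was compared with embryonic cortex on the deposited values in limma 3.58.1 under R 4.3.3 (lmFit, eBayes with a mean-variance trend, no covariate, all 7 samples), two-sided, with Benjamini-Hochberg adjustment over all genes tested. Rows without reads in over 3 of the 7 samples were not tested. This left out genes without reads in every embryonic sample, but kept genes without reads only in the adult samples. Without this filter 8508 genes were higher and 7739 lower, against 8180 and 7736 with it, and 26 carriers were higher and 8 lower. The test against a 2-fold null was limma's treat, and exons were tested with diffSplice. The gene fit and the recovery of counts were tested on simulated data.

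Values in every sample are given for called members with a difference of at least 1, for members of the 8 pairs and for the 6 most read members. Of other lists at most the 2 called genes with the largest difference are named, with other names given only to complete a count. Members, pairs, lists and motifs were chosen with earlier results of these data known. Alternatives were no filter, centring, other eBayes settings, voom on the recovered counts, a replicate block, and leaving out each sample. Mcart2 was not found by symbol and was not analysed here. In the counts and sums 1 carrier is included that is not reported here by name, and the figures leave it out.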

Additional observations from a re-analysis of the deposited data

Results flagged for a closer look

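In 2 of the 43 tested carriers 1 embryonic sample lay far from the other 3 by Dixon's criterion, which by chance marks about 1 group in 20. Embryonic replicate 3 had the highest value of Slc25a34, -8.70 on the deposited scale or 0.612 CPM, where the other embryonic samples lay between -9.65 and -9.49. The same sample had the highest value of Slc25a37, -5.77 or 7.06 CPM, where the others lay between -5.91 and -5.89. Both values lay below every adult sample.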

How the results depend on the processing

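Of the 35 called carriers, 31 (23 higher and 8 lower) kept their call and direction under all 13 alternatives. Those that did not include Slc25a32, Slc25a40 and Slc25a48. The median difference of the carriers, 0.52, was 0.34 after centring, 0.45 with voom on the recovered counts and 0.47 to 0.60 when each sample was left out. Centring moved the share of higher calls among called genes from 51.4% to 43.6%. Differences that changed sign belonged to carriers that were not called. They were Slc25a28 (-0.0195) and Slc25a29 (-0.0247) after centring, Slc25a31 without embryonic replicate 4 (-0.0306, highest 0.6009 without embryonic replicate 2), Slc25a13 (from -0.4186 without adult replicate 1 to 0.0068 without adult replicate 3) and Slc25a38 (from -0.1059 without adult replicate 2 to 0.0358 without adult replicate 3, and above 0 also without embryonic replicate 1 or 2 or adult replicate 1). The cause was not tested. Exon calls ranged from 2757 (without adult replicate 2) to 6799 (without adult replicate 3) over all genes when 1 sample was left out, and from 6 to 11 (without adult replicate 3) in the carriers. Deviations from the group means had correlations of 0.03, 0.08 and 0.09 between same-numbered samples and -0.11 to 0.17 between the others. Such low values cannot show whether the numbers pair samples. With a replicate block 8006 genes were higher and 7549 lower, 26 carriers were higher and 8 lower, 8 carrier exons were called, the call of Slc25a48 was lost (adjusted p = 0.1314) and Slc25a31 stood at -0.0306. Carriers with under 10 reads a sample, such as Slc25a31, Slc25a41, Slc25a43 and Slc25a48, are limited by depth.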
